A study of Mus musculus with 18 samples.

Results

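Adipokines are the hormones and signalling proteins that fat tissue secretes. The 9 genes described here are the classical adipokine genes Lep, Adipoq, Retn, Cfd, Rbp4, Nampt, Apln, Rarres2 and Nrg4, taken by gene symbol from the 25124 genes of each count table. All 9 were measured and passed the filter on low counts in every depot. The data are RNA-seq counts of poly(A) RNA from inguinal white fat (iWAT), epididymal white fat (eWAT) and brown fat (BAT) of male mice. Wild-type (WT) mice and mice with a whole-body deletion of Casp6, the gene of the executioner protease caspase-6, are compared, and the knockout is called C6KO. Both genotypes were on the C57BL/6J background, came from crosses of heterozygous parents, and were fed a 60% high-fat diet (HFD) for 12 weeks. Each depot has 3 WT and 3 C6KO libraries, stated to be biological replicates. No group on a control diet is included, so every value is a value in diet-induced obesity. The deletion affects every cell type, and bulk tissue was sequenced: a smaller number of cells of one type and less RNA in each such cell cannot be told apart in any result.

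Fat cells report the size of the fat store to the rest of the body through these proteins. Leptin is made mainly by white adipocytes, rises with fat mass, and acts on the hypothalamus to reduce feeding, while adiponectin acts on liver and muscle to raise fatty acid oxidation and insulin sensitivity, and its blood level falls in obesity. Resistin, retinol binding protein 4 and chemerin have been tied to insulin resistance and inflammation, adipsin is a protease of the alternative complement pathway, and neuregulin 4 is a factor of brown fat.

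The depth was 7803108 to 12428683 counts per library in BAT, 16717201 to 19139694 in eWAT and 16506034 to 19043523 in iWAT. Levels are given as counts per 1000000 counts (CPM) after TMM scaling within a depot, each mean with its SD over 3 libraries. Casp6 was lower in C6KO without overlap in every depot, at 18.7 ± 2.27 CPM in WT and 6.55 ± 1.27 in C6KO in iWAT, 14.6 ± 3.82 and 5.12 ± 1.93 in BAT, and 20.5 ± 2.26 and 5.65 ± 1.22 in eWAT. Summed adipocyte markers (19 genes such as Pparg, Plin1 and Fabp4, with no adipokine among them) were found in all depots, and summed brown adipocyte markers (11 genes such as Ucp1 and Cidea) reached 6813 to 15504 CPM in BAT WT against at most 130 CPM in iWAT WT. The BAT WT replicate 2 library stands apart, with 34963 CPM of summed skeletal muscle markers against 42.5 to 6763 CPM in the other 5 BAT libraries. The iWAT C6KO replicate 3 library lies nearer to WT than the other C6KO libraries, with 1973 CPM of summed macrophage markers against 680 and 701 CPM.

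A gene passed the test where edgeR's quasi-likelihood test gave a Benjamini-Hochberg adjusted p below 0.05 over all genes of the depot and a fold change of at least 1.5. By this test 1 of the 9 adipokine genes changed in C6KO in BAT, Lep, which fell. The background there is 1.24% of 13595 genes in either direction and 1.07% lower. In iWAT 0 of 9 passed, against 0.0275% of 14533 genes, and in eWAT 0 of 9 passed, against 0.746% of 14889 genes. The deleted gene Casp6 itself passed by edgeR in eWAT alone (-1.85, adjusted p = 0.0132). It did not pass in iWAT (-1.51, adjusted p = 0.0751) or BAT (-1.50, adjusted p = 0.0671). A gene that did not pass is thus not shown to be unchanged. At an unadjusted p below 0.05, with no minimum fold change, 4 adipokine genes were higher and 0 lower in iWAT, where 7.25% of all genes were higher and 9.29% lower. The same count was 6 higher and 0 lower in eWAT (9.81% and 7.82% of all genes) and 1 higher and 2 lower in BAT (4.56% and 8.64%). DESeq2, with the same thresholds, called Nrg4 higher in iWAT, Adipoq, Apln, Cfd, Nrg4 and Retn higher in eWAT, and in BAT Cfd higher with Lep and Rarres2 lower. Its background was 3.67% of genes in BAT, 3.99% in eWAT and 4.72% in iWAT. The C6KO and WT libraries did not overlap for 4 adipokine genes in BAT, 5 in eWAT and 4 in iWAT, where 20.2%, 23.2% and 23.2% of all genes did not overlap. The median log2 fold change of the 9 was 0.06 in BAT, 0.60 in eWAT and 0.41 in iWAT, beside -0.03, -0.01 and 0.03 over all genes tested.

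**Figure D1:**
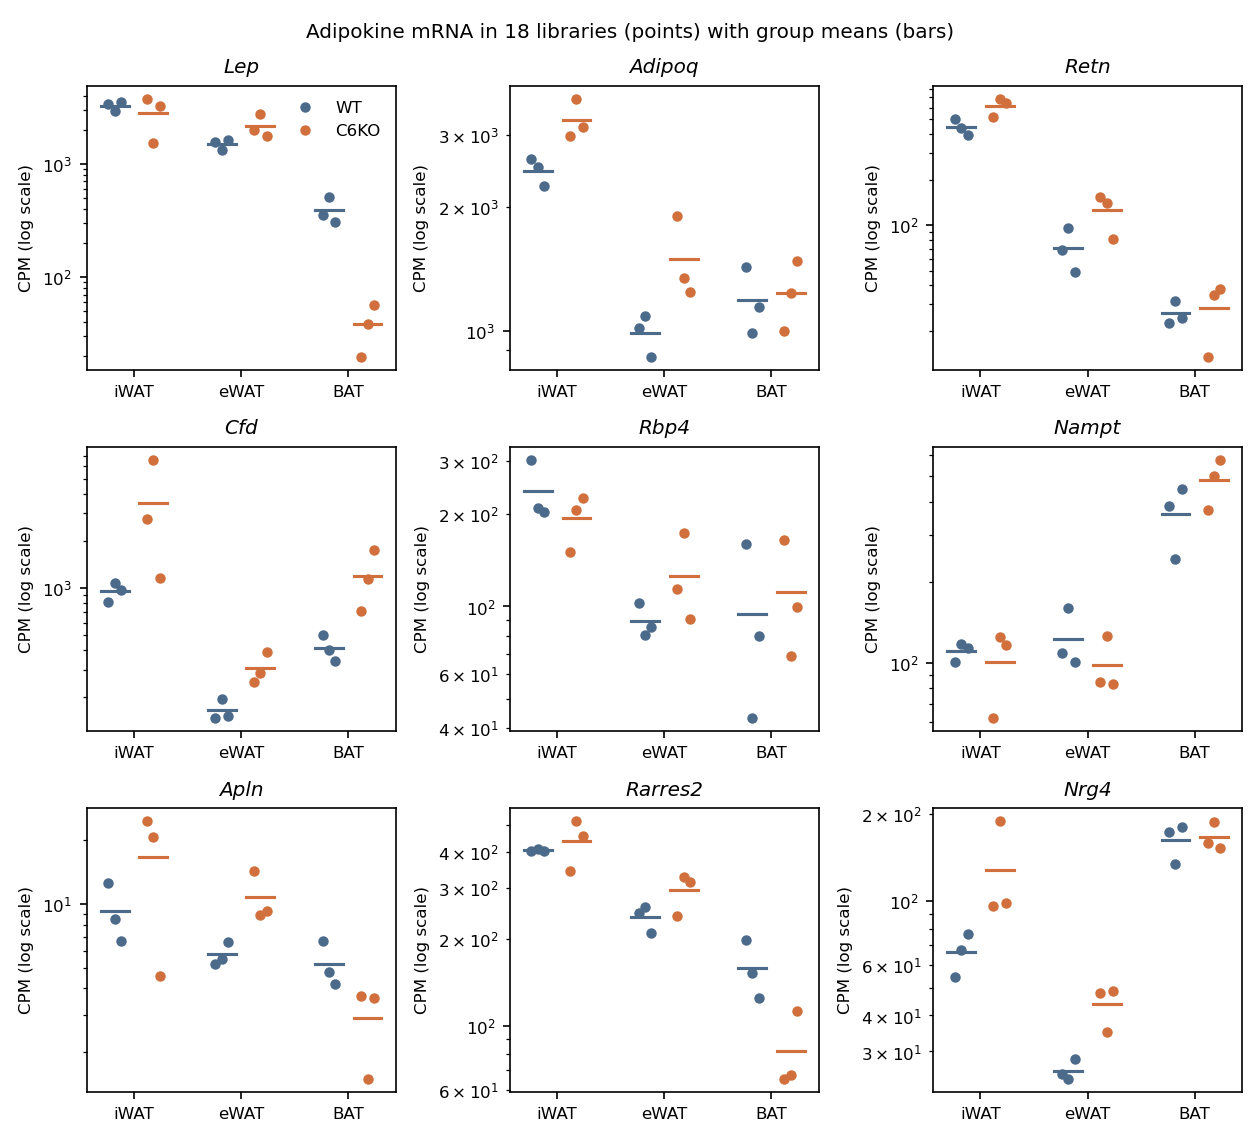
Level of the 9 adipokine genes in all 18 libraries, in CPM on a log axis that differs between panels, by depot and genotype (WT blue, C6KO orange, bar at the group mean, n = 3). Lep in BAT shows the widest gap, with C6KO libraries at 19.5 to 56.2 CPM and WT libraries at 309 to 505 CPM.

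Lep, the leptin gene, lies on chromosome 6 at chr6:29060221-29073876 (mm10, plus strand) and has 3 exons in the annotation used here. The 250 bases before its start, the window that holds the proximal promoter, are shown because Lep was the adipokine gene that passed the test, and those of Adipoq are shown beside them because its level in BAT overlapped between the genotypes. Both come from RefSeq on GRCm38.p6, which is the assembly behind mm10. The Lep window is chr6:29059971-29060220 and the Adipoq window chr16:23146286-23146535, both on the plus strand. Capitals mark matches to the Sp1 box GGGCGG and to the C/EBP motif TTGCNNAA.
Lep: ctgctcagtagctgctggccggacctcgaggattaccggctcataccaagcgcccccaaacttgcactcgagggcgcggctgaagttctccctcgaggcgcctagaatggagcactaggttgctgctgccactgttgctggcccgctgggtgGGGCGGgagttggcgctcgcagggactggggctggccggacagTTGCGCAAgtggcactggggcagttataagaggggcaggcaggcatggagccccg
Adipoq: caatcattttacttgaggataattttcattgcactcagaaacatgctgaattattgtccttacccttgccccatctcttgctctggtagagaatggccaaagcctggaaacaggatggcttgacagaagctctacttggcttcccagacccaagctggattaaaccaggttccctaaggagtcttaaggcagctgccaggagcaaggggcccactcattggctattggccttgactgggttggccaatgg

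Before the start of Lep, the Sp1 box spans -98 to -93 and the C/EBP match -55 to -48. Searched on both strands, the Sp1 box occurs in 32.7% of 32807 RefSeq promoters of this length, and the C/EBP letters occur in 9.57%. The Adipoq window held neither, and neither window held the exact TATA box letters TATAAA (12.4% of promoters), a PPAR element of paired AGGNCA sites with any 1 base between them (0.338%) or the E-box CACGTG (6.02%). The Lep window holds the letters tataag near its end, which the search did not count. It is thus not shown that Lep lacks a TATA box. The Lep window is 65.6% G and C and the Adipoq window 48.8%. Among the other adipokine genes, Sp1 boxes also occurred before Rbp4, Nampt and Apln, and a C/EBP match before Rbp4. None of those genes passed the edgeR test in BAT, which does not show them to be unchanged. Whether these letters have a part in the Lep difference was not tested. Letters in a window describe that window and are not evidence of binding.

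Leptin mRNA fell in the brown fat of C6KO mice. In BAT, Lep read 352, 505 and 309 CPM in the 3 WT libraries and 19.5, 38.9 and 56.2 CPM in the 3 C6KO libraries. The groups did not overlap, and the lowest WT library lay several-fold above the highest C6KO library. The means were 389 ± 103 CPM in WT and 38.2 ± 18.3 CPM in C6KO, a 10.2-fold difference, with a log2 fold change of -3.35 (SE 0.411, adjusted p = 0.0146 by edgeR). Among the 13595 genes tested in BAT, its estimate ranked 27 from the lowest. DESeq2 gave -3.32 with an adjusted p of 7.91e-21. Leaving out the muscle-rich WT replicate 2 left the call in place (-3.11, adjusted p = 0.0360), whereas leaving out WT replicate 1 (-3.38, adjusted p = 0.0966) or C6KO replicate 2 (-3.33, adjusted p = 0.105) took it past the threshold with little change in size.

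In white fat Lep did not pass the test. In eWAT it read 1571, 1332 and 1608 CPM in WT and 2009, 2743 and 1761 CPM in C6KO. All 3 C6KO libraries lay above all 3 WT libraries, yet the estimate did not pass the test (0.53, SE 0.178, adjusted p = 0.160 by edgeR). In DESeq2 its adjusted p was 0.0275 at a fold change of 1.44, which is under the minimum used here. In iWAT the WT libraries held 3342, 2953 and 3501 CPM of Lep and the C6KO libraries 3742, 1527 and 3244 CPM. The groups overlapped there, C6KO replicate 2 was the low library, and the log2 estimate of -0.20 (SE 0.300, adjusted p = 0.778 by edgeR) became 0.10 without it. Lep made up 0.150 to 0.356% of all counts in the iWAT libraries and 0.135 to 0.267% in eWAT, against 0.0317 to 0.0503% in BAT WT and 0.00191 to 0.00577% in BAT C6KO.

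The difference between depots was tested itself, in one fit of all 18 libraries. The C6KO effect on Lep was higher in eWAT than in BAT by 3.87 on the log2 scale (SE 0.493, adjusted p = 0.00152 by edgeR), and higher in iWAT than in BAT by 3.14 (SE 0.487, adjusted p = 0.0105). Lep was the only adipokine gene to pass the edgeR test in either contrast, where 0.536% and 0.183% of 15866 genes passed. Both calls held when each of the 12 libraries concerned was left out in turn, but with the replicate number within genotype as a block the iWAT call was lost (3.17, adjusted p = 0.0640 by edgeR) and the eWAT call held (3.93, adjusted p = 0.0148). Between iWAT and eWAT the effect on Lep differed by -0.73 (SE 0.474, adjusted p = 0.977), and 0 of the 9 genes and 0% of all genes passed there by edgeR. At an unadjusted p below 0.05 and 1.5-fold, 0 of the 9 and 4.08% of all genes did, and DESeq2 called 0 of the 9 and 0.0866% of all genes. Rarres2 came next for eWAT against BAT at 1.27 (SE 0.315, adjusted p = 0.0836 by edgeR, 0.00813 by DESeq2), and passed the edgeR test without BAT WT replicate 3 (1.42, adjusted p = 0.04997) or BAT C6KO replicate 3 (1.59, adjusted p = 0.0206).

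**Figure D2:**
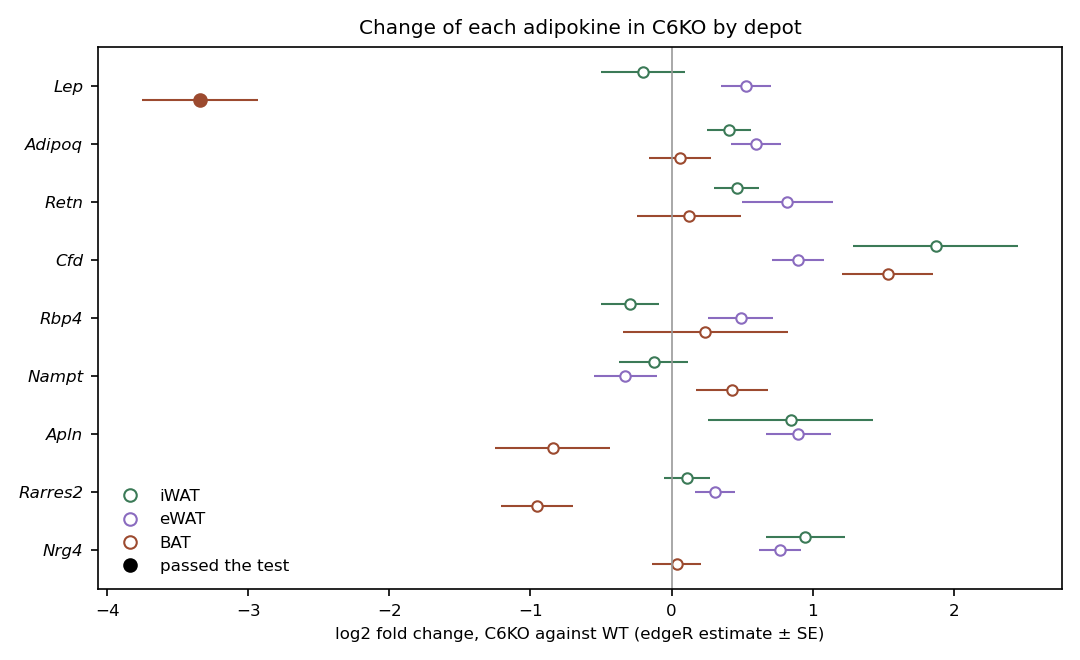
Log2 fold change of each adipokine gene in C6KO against WT by depot, as the edgeR estimate with its SE (3 against 3 libraries). The filled point, Lep in BAT at -3.35, is the one that passed the test, and for the other 8 genes the estimates lie between -0.95 and 1.87.

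Measured against other adipocyte transcripts in the same library, Lep in BAT remained low. There were 0.246, 0.510 and 0.270 Lep counts per Adipoq count in the BAT WT libraries and 0.0195, 0.0314 and 0.0380 in the BAT C6KO libraries. The ranges did not overlap, and the mean log2 ratio was lower by 3.50 in C6KO (-3.50, pooled SD 0.535). Against the summed adipocyte marker list the difference was -3.57 on the log2 scale. In eWAT the ratio of Lep to Adipoq was 1.22 to 1.86 in WT and 1.06 to 2.03 in C6KO, and the ranges overlapped. In iWAT it was 1.18 to 1.56 in WT against 0.416, 1.03 and 1.26 in C6KO, overlapping as well, while against the adipocyte list Lep was lower in all 3 iWAT C6KO libraries (-0.59 on the log2 scale).

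**Figure D3:**
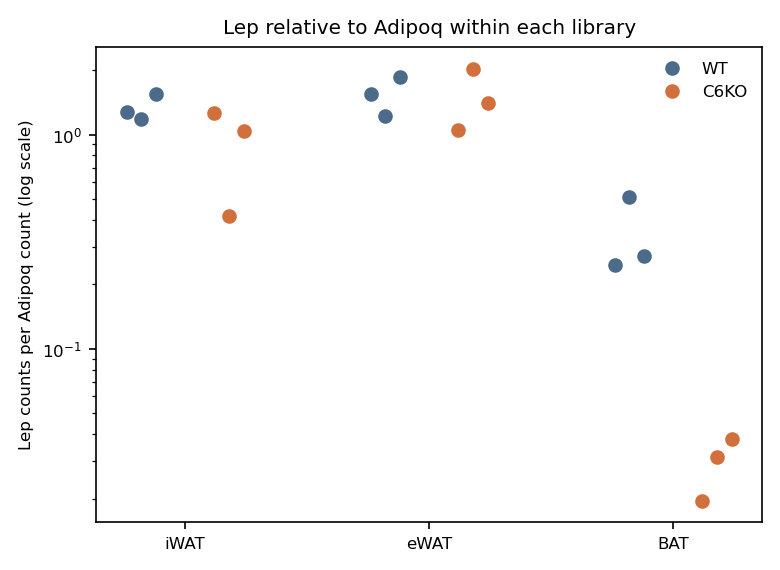
Lep counts per Adipoq count in each library, on a log axis, by depot and genotype. The BAT C6KO libraries lie at 0.0195 to 0.0380 and the BAT WT libraries at 0.246 to 0.510, while the white fat groups overlap.

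Cell type markers moved in BAT too, but not all of them in the direction of Lep. The 19 adipocyte markers summed to 46719 to 55858 CPM in BAT WT and 52031 to 60537 CPM in BAT C6KO, ranges that overlap, with 12 of 19 estimated above 0 and 0 past the test. Brown adipocyte markers overlapped as well, at 6813 to 15504 and 9736 to 13201 CPM. Macrophage markers summed to 984 to 1285 CPM in WT and 355 to 559 CPM in C6KO, with 15 of 16 genes estimated lower and 8 past the test. Stromal progenitor markers were also lower, at 1316 to 1950 against 848 to 1093 CPM, with 9 of 10 genes estimated lower and 2 past the test. No marker of these lists was at 0 throughout. The part of these cell types in the Lep difference was not tested.

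**Figure D4:**
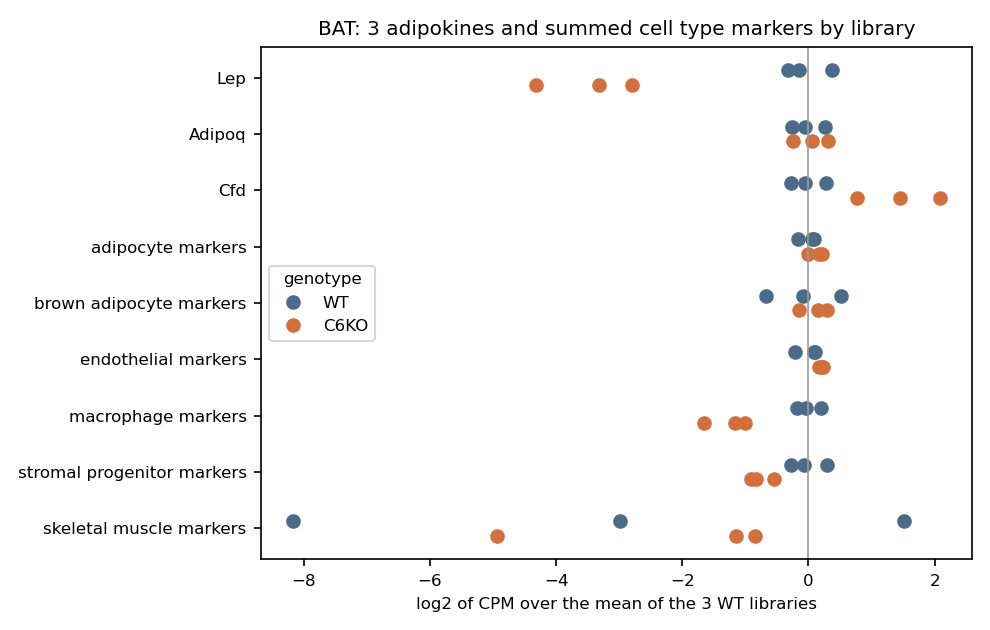
BAT libraries only: Lep, Adipoq, Cfd and 6 summed marker lists, each as log2 of its CPM over the mean of the 3 WT libraries (WT blue, C6KO orange). Lep lies far to the left in all 3 C6KO libraries while Adipoq and the adipocyte markers overlap between genotypes, and the muscle markers spread widest among WT libraries.

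Adiponectin (Adipoq) and resistin (Retn), both adipocyte hormones in mice, had higher C6KO means in white fat that did not pass the test. Adipoq in eWAT read 1018, 1089 and 864 CPM in WT and 1904, 1349 and 1247 CPM in C6KO. The groups did not overlap, with means of 990 ± 115 and 1500 ± 353 CPM (log2 fold change 0.60, SE 0.177, adjusted p = 0.120 by edgeR and 0.0113 by DESeq2). In iWAT it was 2458 ± 187 against 3261 ± 363 CPM, again without overlap (0.41, SE 0.158, adjusted p = 0.256 by edgeR). BAT held 1190 ± 225 and 1240 ± 239 CPM of Adipoq, and those libraries overlapped. The adipocyte markers were higher in C6KO in the same depots, at 69291 to 71631 against 81212 to 91227 CPM in iWAT and 34894 to 39052 against 39883 to 56856 CPM in eWAT. Relative to that list, the Adipoq ranges of the genotypes overlapped in all 3 depots.

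Retn in iWAT stood at 446 ± 53.2 CPM in WT and 615 ± 84.4 CPM in C6KO without overlap (0.46, SE 0.160, adjusted p = 0.218 by edgeR). In eWAT the WT libraries gave 68.3, 96.1 and 49.2 CPM of Retn, and the C6KO libraries 155, 141 and 81.3 CPM. One C6KO library fell inside the WT range, and the estimate of 0.82 (SE 0.323) had an adjusted p of 0.264 by edgeR and 0.0250 by DESeq2. BAT values of Retn were low and overlapped, at 26.2 ± 4.82 and 28.6 ± 13.3 CPM.

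Adipsin (Cfd) was the adipokine whose C6KO libraries lay above every WT library in all 3 depots. In BAT it read 501, 400 and 343 CPM in WT and 710, 1137 and 1753 CPM in C6KO. The means differed 2.89-fold, from 415 ± 79.9 to 1200 ± 524 CPM (log2 fold change 1.53, SE 0.321, adjusted p = 0.0643 by edgeR and 2.29e-05 by DESeq2). By eWAT library, Cfd was 146, 196 and 153 CPM in WT and 249, 285 and 388 CPM in C6KO (0.90, SE 0.181, adjusted p = 0.0571 by edgeR and 8.81e-05 by DESeq2). In iWAT, 816, 1082 and 974 CPM in WT stood against 2753, 6601 and 1158 CPM in C6KO. The spread among these C6KO libraries was wide, with an SD of 2798 CPM around a mean of 3504 CPM, and the low one was replicate 3, whose macrophage markers also lay nearest to WT. The estimate was 1.87 (SE 0.586, adjusted p = 0.214 by edgeR) and rose to 2.27 (adjusted p = 0.00867) without that library. In that fit 1278 of 14798 genes passed, against 4 of 14533 with all libraries. Relative to the adipocyte list, Cfd in BAT was higher without overlap (1.33 on the log2 scale), while in iWAT (1.24) and eWAT (0.50) the ranges overlapped.

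Neuregulin 4 (Nrg4), a ligand of ErbB receptors, was higher in C6KO white fat without overlap. It read 54.4, 67.8 and 76.6 CPM in iWAT WT and 95.7, 189 and 98.5 CPM in iWAT C6KO (0.95, SE 0.282, adjusted p = 0.196 by edgeR and 0.0169 by DESeq2). In eWAT the values were 25.0, 24 and 28.2 CPM in WT and 47.9, 35.0 and 48.5 CPM in C6KO (0.77, SE 0.147, adjusted p = 0.0524 by edgeR and 0.000778 by DESeq2). The edgeR test passed in eWAT without C6KO replicate 2, the lowest of the 3 (0.92, adjusted p = 0.0173), where 347 of 15106 genes passed. In BAT, where Nrg4 is most abundant, the genotypes overlapped at 163 ± 25.2 and 167 ± 19.1 CPM (0.04, SE 0.175). Relative to the adipocyte list, the ranges overlapped in all depots. Its exons overlap those of Fbxo22 on the opposite strand, and whether the counting used strand is not given in the sources used here, so the share of counts due to each gene is uncertain.

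Apelin (Apln), the ligand of the apelin receptor in blood vessels and heart, was the least abundant of the 9. In eWAT it read 5.2, 5.52 and 6.65 CPM in WT and 14.3, 8.85 and 9.28 CPM in C6KO without overlap (0.90, SE 0.232, adjusted p = 0.0842 by edgeR and 0.0185 by DESeq2). Endothelial markers were higher in the same eWAT C6KO libraries, at 879 to 1047 CPM in WT and 1274 to 1522 CPM in C6KO, and their part in the Apln values was not tested. In iWAT it read 12.5, 8.51 and 6.67 CPM in WT and 24.6, 20.6 and 4.59 CPM in C6KO, so replicate 3 was below every WT library. The estimate of 0.85 (SE 0.584, adjusted p = 0.513 by edgeR) became 1.27 (adjusted p = 0.0186) without it, in the fit where 1278 of 14798 genes passed. In BAT, Apln was lower without overlap, with 52, 54 and 42 counts in WT and 31, 18 and 37 counts in C6KO, but the estimate of -0.84 (SE 0.407) had an adjusted p of 0.413 by edgeR.

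Chemerin (Rarres2), an attractant of macrophages and dendritic cells that signals through Cmklr1, was lower in BAT of C6KO mice. The WT libraries held 198, 152 and 125 CPM and the C6KO libraries 65.0, 67.2 and 113 CPM. The highest C6KO library lay below the lowest WT library, and the means were 158 ± 36.8 and 81.6 ± 26.9 CPM (-0.95, SE 0.256, adjusted p = 0.130 by edgeR and 0.0164 by DESeq2). Relative to the adipocyte list the difference was -1.11 on the log2 scale, also without overlap. The genotypes overlapped in iWAT (407 ± 3.94 and 439 ± 85.9 CPM) and in eWAT (238 ± 25.3 and 295 ± 48.3 CPM). Rarres2 overlaps Lrrc61 on the opposite strand, with the same uncertainty as for Nrg4.

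Retinol binding protein 4 (Rbp4), the blood carrier of vitamin A, and Nampt, the enzyme that makes nicotinamide mononucleotide in the salvage of NAD and is also secreted, overlapped between the genotypes in every depot. Rbp4 was 239 ± 54.6 and 195 ± 39.2 CPM in iWAT (log2 fold change -0.29, SE 0.203), 89.7 ± 11.8 and 126 ± 42.9 CPM in eWAT (0.49, SE 0.231), and 94.5 ± 60.1 and 111 ± 49.4 CPM in BAT (0.24, SE 0.585). The BAT WT libraries of Rbp4 ranged from 43.0 to 161 CPM, the widest relative spread of any WT group among the 9 genes. Nampt was 110 ± 8.84 and 101 ± 34.2 CPM in iWAT (-0.13, SE 0.243), 123 ± 32.4 and 98.1 ± 24.4 CPM in eWAT (-0.33, SE 0.224), and 360 ± 104 and 485 ± 103 CPM in BAT (0.43, SE 0.257). Relative to the adipocyte list, Rbp4 in iWAT was lower in C6KO without overlap (-0.59 on the log2 scale), as was Nampt in eWAT (-0.71), and the other 4 ranges overlapped. The smallest edgeR adjusted p among the 6 tests of level was 0.328, for Rbp4 in eWAT, so that changes of the size of these errors were not detectable with 3 libraries a group.

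The depots of the WT mice differed in their adipokine mRNAs. To compare genes with each other, levels were divided by transcript length and are given as CPM per kilobase, scaled over all 18 libraries. In iWAT WT, Adipoq led at 2022 CPM per kilobase, followed by Cfd at 1060 and Lep at 1014, whose ranges overlapped, then Retn at 783, Rarres2 at 491, Rbp4 at 195, Nrg4 at 34.9, Nampt at 24.5 and Apln at 2.97. Each of the other neighbours in that order was separated without overlap. In eWAT WT the order was Adipoq (732), Lep (420), Rarres2 (258), Cfd (164), Retn (112), Rbp4 (66.0), Nampt (24.6), Nrg4 (12.2) and Apln (1.67), with overlap between Cfd and Retn alone. BAT WT had Adipoq (1068) and Cfd (500) on top, then Rarres2 (208) and Lep (131) overlapping, then Nrg4 (93.3), Nampt (87.6), Rbp4 (85.0) and Retn (49.9), each overlapping its neighbour, and Apln (1.83) last. In BAT C6KO, Lep at 12.8 CPM per kilobase ranked 8 among the 9, against rank 4 in WT.

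**Figure D5:**
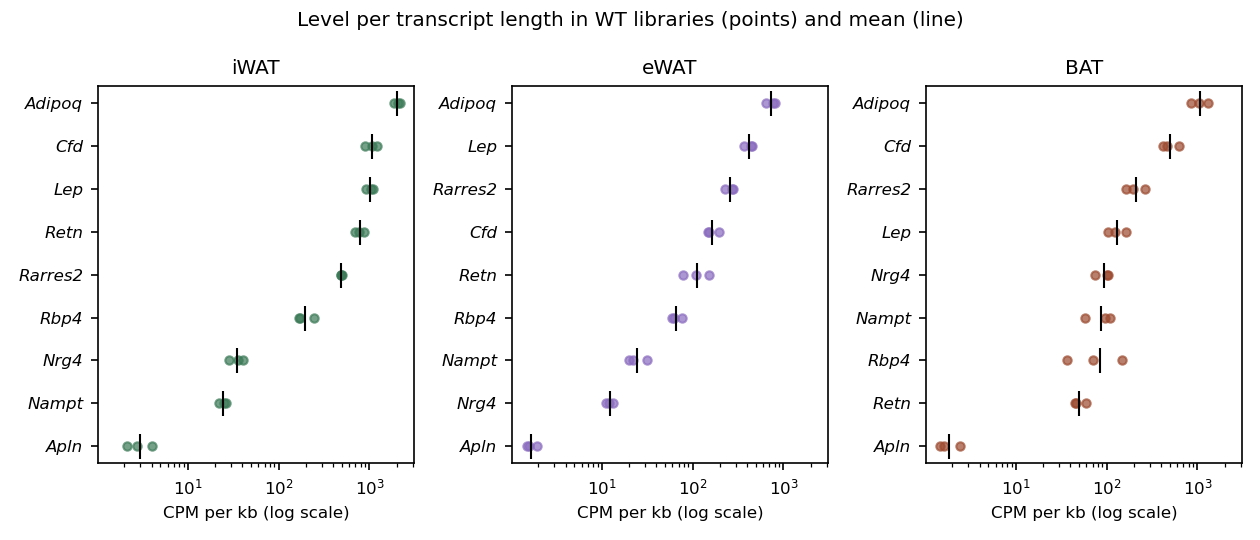
Level of the 9 adipokine genes in WT libraries by depot, in CPM per kilobase of transcript on a log axis, ordered by mean (points are the 3 libraries, the line their mean). Adipoq leads in each depot and Apln is last, while Retn falls from 783 in iWAT to 49.9 in BAT and Nrg4 rises from 34.9 to 93.3.

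Lep and Retn were the adipokine mRNAs that marked white fat. Between depots of WT mice, 7 of the 9 genes were lower in eWAT than in iWAT by edgeR and 0 were higher, beside 12.9% of 15866 genes lower and 12.8% higher. These were Retn (-2.80), Cfd (-2.69), Rbp4 (-1.56), Nrg4 (-1.52), Adipoq (-1.47), Lep (-1.27) and Rarres2 (-0.93), in log2 units. Apln (-0.83, SE 0.462) and Nampt (0.00, SE 0.285) did not pass. In BAT against iWAT, 5 were lower and 2 higher, where 18.7% of all genes were lower and 20.1% higher. Retn was lower by -3.97, a 15.7-fold difference (adjusted p = 4.38e-07), and Lep by -2.96, a 7.76-fold difference (adjusted p = 6.62e-06). Rarres2 (-1.24), Rbp4 (-1.20) and Adipoq (-0.92) were the other 3. The Rbp4 call was lost without iWAT WT replicate 1 (-1.0), BAT WT replicate 2 (-0.84) or BAT WT replicate 3 (-1.09).

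Nampt and Nrg4 marked brown fat. In BAT against iWAT, Nampt was higher by 1.84 (adjusted p = 9.65e-05) and Nrg4 by 1.42 (adjusted p = 0.000101), both by edgeR. Against eWAT, Nrg4 was higher in BAT by 2.94, a 7.66-fold difference, Nampt by 1.83 and Cfd by 1.61, while Lep (-1.68) and Retn (-1.17) were lower. Those are 3 higher and 2 lower of 9, beside 25% and 23.6% of all genes. Adipoq, at 0.55 in BAT against eWAT, had an edgeR adjusted p of 0.0266 but missed the 1.5-fold minimum, and it exceeded the minimum without eWAT WT replicate 2 (0.61) or BAT WT replicate 2 (0.68). Taken over the 3 depots, the ratio of highest to lowest WT level was 15.7 for Retn, 7.76 for Lep, 7.67 for Nrg4, 6.45 for Cfd, 3.57 for Nampt, 2.95 for Rbp4, 2.76 for Adipoq, 2.36 for Rarres2 and 1.78 for Apln. Each depot is its own table, and depth was lower in BAT than in iWAT or eWAT. No sequencing batch is named, so depot cannot be told apart from any batch that went with it.

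The receptors of these hormones did not pass the edgeR test in any depot (0 of 13 tested in iWAT, 0 of 12 in eWAT and 0 of 13 in BAT of a list of 14). At an unadjusted p below 0.05 and 1.5-fold, 2 were higher and 1 lower in iWAT, 2 were higher in eWAT and 1 was lower in BAT, where 9.33%, 6.99% and 8.89% of all genes passed in either direction. DESeq2 called 1 higher in iWAT and 2 higher in eWAT. Adipor2, the adiponectin receptor tied to PPARα activity, was 845 ± 173 and 1573 ± 313 CPM in iWAT without overlap (0.90, SE 0.212, adjusted p = 0.154 by edgeR and 0.00236 by DESeq2) and 455 ± 32.9 and 685 ± 199 CPM in eWAT (0.59, SE 0.191, adjusted p = 0.152 by edgeR and 0.0265 by DESeq2). The T-cadherin gene Cdh13, which binds adiponectin on vessel walls, read 37.3 ± 5.11 and 62.6 ± 14.9 CPM in eWAT (0.75, SE 0.175, adjusted p = 0.0687 by edgeR and 0.00373 by DESeq2). Adipor1 overlapped in iWAT and BAT and lay at 198 ± 12.8 and 223 ± 6.55 CPM in eWAT (0.17, SE 0.0983).

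The leptin receptor gene Lepr was scarce in fat, at 1.48 to 6.66 CPM on average in WT, and overlapped between genotypes in every depot. The apelin receptor gene Aplnr and the chemerin receptor genes Cmklr1 and Ccrl2 overlapped everywhere, and Gpr1 was lower without overlap in iWAT (4.64 ± 0.441 and 2.48 ± 0.731 CPM, -0.90, adjusted p = 0.218 by edgeR). Of the neuregulin receptors, Erbb4 read 1.82 ± 0.867 and 3.82 ± 1.32 CPM in iWAT (1.07, SE 0.441, adjusted p = 0.275 by edgeR), with overlap, and was too low to be tested in eWAT. Erbb3 overlapped in iWAT and BAT and was 5.19 ± 0.790 and 3.65 ± 0.679 CPM in eWAT without overlap (-0.50, SE 0.248). Stra6, a receptor of Rbp4, was too low to be tested. Tlr4, a proposed resistin receptor, had the smallest unadjusted p of the list in BAT, with 36.6 ± 2.68 and 23.6 ± 2.12 CPM (-0.64, SE 0.154, adjusted p = 0.0955 by edgeR).

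Genes of the complement cascade in which adipsin acts gave 3 calls in BAT of 8 tested, 1 higher and 2 lower, beside 1.24% of all genes. DESeq2 called 1 higher and 3 lower there, beside 3.67% of all genes. C3, the component cleaved by the convertase that adipsin helps to form, rose from 477 ± 80.7 to 1014 ± 81.1 CPM (1.09, SE 0.188, adjusted p = 0.0306 by edgeR). The complement factor B gene Cfb went the other way, from 46.9 ± 22.1 to 20.1 ± 3.97 CPM without overlap (-1.22, SE 0.325, adjusted p = 0.139 by edgeR and 0.00901 by DESeq2). The receptors C3ar1 and C5ar1, carried by macrophages, fell, from 41.5 ± 7.06 to 11.0 ± 3.56 CPM (-1.92, SE 0.251, adjusted p = 0.00999) and from 37.5 ± 7.66 to 12.2 ± 4.60 CPM (-1.62, SE 0.276, adjusted p = 0.0298). The macrophage markers were lower in the same libraries, as given above, and their part here was not tested. Of the 6 fits that left out 1 BAT library, 1 kept the C3 call, 4 kept C3ar1 and 2 kept C5ar1. C3 was taken up between depots because of its BAT call. Its log2 estimates were 1.09 in BAT, -0.82 in iWAT and -0.45 in eWAT. A test of that difference would reuse the BAT libraries by which C3 was picked, so none is given. In white fat 0 of 11 complement genes passed by edgeR, with 4 in iWAT and 1 in eWAT at an unadjusted p below 0.05 and 1.5-fold (9.33% and 6.99% of all genes) and 2 and 1 called by DESeq2 (4.72% and 3.99%). The smallest unadjusted p value in iWAT was that of C3 (-0.82, adjusted p = 0.183).

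The other lists around the adipokines gave few calls. None of the 8 genes for the folding and assembly of adiponectin passed in any depot, and Gstk1, which promotes its multimers, was nearest in white fat (0.45 in iWAT and 0.55 in eWAT, adjusted p = 0.200 and 0.0725 by edgeR). P4hb, a folding enzyme of the endoplasmic reticulum, was nearest in BAT (-0.44, adjusted p = 0.250). For the 16 NAD genes around Nampt there were 0 calls, and Bst1, an enzyme that consumes NAD, was lower in C6KO without overlap in each depot (-1.39 in BAT, -0.51 in eWAT and -1.28 in iWAT, adjusted p = 0.214, 0.149 and 0.166). The 12 regulators of leptin signalling also gave 0 calls, with Ptpn1 nearest in iWAT (-0.25), Ptpn11 in eWAT (0.53, adjusted p = 0.0655) and Jak2 in BAT (-0.37). At an unadjusted p below 0.05 and 1.5-fold, these 3 lists held 2 of 34 genes tested in BAT, 0 of 36 in eWAT and 1 of 36 in iWAT, beside 8.89%, 6.99% and 9.33% of all genes. By DESeq2, Bst1 in iWAT was their only call, where 4.72% of all genes were called.

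Among retinol genes, Ttr, which carries Rbp4 in blood and is made by liver, rose in eWAT from 0.214 ± 0.138 to 2.46 ± 0.910 CPM (3.50, SE 0.592, adjusted p = 0.0432 by edgeR). Hepatocyte markers, a list that includes Ttr, were higher in the same libraries, at 11.5 to 18.4 CPM in WT and 34.8 to 102 CPM in C6KO, and their part was not tested. The iWAT and BAT lists gave 0 edgeR calls among 8 and 7 genes tested (1 and 2 by DESeq2, and 2 each at an unadjusted p below 0.05 and 1.5-fold), where DESeq2 called 4.72% and 3.67% of all genes and 9.33% and 8.89% were past the unadjusted threshold, with Aldh1a3 nearest in iWAT (-1.02, adjusted p = 0.154) and Dhrs3 in BAT (-0.80, adjusted p = 0.0591). Of 58 other secreted factors of fat, 51 were tested in eWAT, where Sfrp5 (1.19, adjusted p = 0.0436) and Ccl2 (0.73, adjusted p = 0.0432) rose and Fndc5 fell (-1.10, adjusted p = 0.0432), and 48 in BAT, where the osteopontin gene Spp1 fell (-2.81, adjusted p = 0.0417). Each of Ttr, Sfrp5, Ccl2, Fndc5 and Spp1 kept its call in 1 of the 6 fits with a library left out. In iWAT 0 of 51 passed by edgeR, against 15 (1 higher, 14 lower) at an unadjusted p below 0.05 and 1.5-fold and 10 by DESeq2, beside 9.33% and 4.72% of all genes, with the smallest p for Dpp4 (-0.97) and Fbn1 (-0.74, adjusted p = 0.154 for both). The same counts were 12 (10 higher, 2 lower) and 11 of 51 in eWAT, beside 6.99% and 3.99% of all genes, and 24 (4 higher, 20 lower) and 13 of 48 in BAT, beside 8.89% and 3.67%. The median log2 fold change of these factors was -0.67 in BAT, -0.03 in eWAT and -0.26 in iWAT, against the medians near 0 of all genes given above. Macrophage markers were lower in the BAT C6KO libraries, as given above. Their part in Spp1 and in the BAT median was not tested.

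The genes whose pattern over the 18 libraries was most like that of Lep were sought among 12761 genes with at least 1 CPM in WT of each depot, by the root mean square difference of log2 CPM after subtracting each depot's WT mean. They were 1700047G03Rik (0.481), Cdsn (0.575) and Sncg (0.579). Sncg, the gene of gamma-synuclein, an adipocyte and nerve cell protein, was at 153 CPM in BAT WT and 26.3 CPM in BAT C6KO (-2.55, adjusted p = 0.000504 by edgeR). In BAT 1700047G03Rik passed as well (-3.74, adjusted p = 0.0212 by edgeR), at 4.82 CPM in WT and 0.342 CPM in C6KO. Its C6KO level thus rests on few counts. Cdsn did not pass (-3.27, adjusted p = 0.155 by edgeR), at 35.0 and 3.54 CPM. The adipokine nearest to Lep was Rarres2 at 1.10, rank 227, and the farthest was Cfd at 2.24, rank 12742. This likeness includes the BAT difference itself and is a description of these libraries. The BAT tests of the 3 genes most like Lep therefore partly restate how they were picked.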

How the data were processed

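The counts were deposited by the authors as 1 table per depot: reads were aligned to mm10 with STAR and raw exon counts per gene, condensed to 1 transcript a gene, were made with HOMER. Versions and strand setting are not given in the sources used here. The tables hold whole-number counts without normalization. The 9 adipokine genes and the lists around them were chosen with earlier results of these data known.

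C6KO was compared with WT in each depot with edgeR 4.0.16 (R 4.3.3, limma 3.58.1): TMM scaling, filterByExpr, robust quasi-likelihood fit, Benjamini-Hochberg adjustment over all genes kept (13595 in BAT, 14889 in eWAT and 14533 in iWAT), called at adjusted p below 0.05 and at least 1.5-fold. WT depots and differences of the C6KO effect between depots came from 1 fit of 18 libraries (15866 genes). DESeq2 1.42.0, other scalings and filters, a replicate block and each library left out were alternatives. Genes named were the 9 members, Casp6, the main receptors, called genes of each list or else those with the smallest p, and the 3 genes most like Lep, with 0.5 CPM added before logs. Some genes that the rule names are not reported here. Promoter sequences were found for 8 of the 9 genes, not for Rarres2. The fits were also run on simulated counts with the same spread for all genes of a depot. Those counts lack the libraries that stand apart here, so they do not vouch for these calls. Figures used Python 3.11.15 and matplotlib 3.10.9. Counting precision was set by 7803108 to 19139694 counts per library, and p-values measure the spread between these libraries.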

Additional observations from a re-analysis of the deposited data

Results flagged for a closer look

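The C6KO effect on Lep differed between white and brown fat by a test of the difference itself: it was 3.14 higher on the log2 scale in iWAT than in BAT (SE 0.487, adjusted p = 0.0105 by edgeR) and 3.87 higher in eWAT than in BAT (SE 0.493, adjusted p = 0.00152 by edgeR). In BAT all 3 C6KO libraries were below all 3 WT libraries, in eWAT all 3 were above, and in iWAT the groups overlapped. Over the 12 libraries left out in turn, the differences ranged from 2.82 to 3.53 and from 3.56 to 4.27. With the replicate number within genotype as a replicate block, the iWAT against BAT difference no longer passed (3.17, adjusted p = 0.0640 by edgeR). No explanation of these differences was tested.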

How the results depend on the processing

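Each single adipokine result was counted once under each alternative setting. Of these pairs, 812 kept their direction and side of the threshold, 35 passed only under the alternative, 11 passed only in the result as reported, and 24 changed sign. The settings include the same contrast in the C6KO groups, which is another comparison. For differences of the C6KO effect between depots, only Lep, Apln and Rarres2 were counted. With DESeq2 the number of adipokine genes called was 3 in BAT, 5 in eWAT and 1 in iWAT, and 19, 16 and 15 genes of the related lists were called. DESeq2 called 3.67%, 3.99% and 4.72% of all genes in these depots. Without a filter on low counts 2 adipokine genes passed in eWAT and 2 in BAT, with at least 10 counts in every library 2 in BAT, and with all 18 libraries in one fit 2 in iWAT and 2 in BAT. Over all genes, 321 of 19608 passed in eWAT and 237 of 18944 in BAT without a filter. With at least 10 counts 177 of 12301 passed in BAT. The fit of 18 libraries gave 366 of 15866 in iWAT and 525 of 15866 in BAT. Leaving out 1 library, the count ranged from 0 to 2 in iWAT, from 0 to 1 in eWAT and from 0 to 1 in BAT, and for the related lists, whose fits were added after the data had been seen, from 0 to 23, 0 to 13 and 0 to 8. The highest counts of the lists came without iWAT C6KO replicate 3, eWAT C6KO replicate 2 and BAT WT replicate 2, the 2 adipokine genes in iWAT without iWAT C6KO replicate 3 were Apln and Cfd, and Lep was not called in BAT without WT replicate 1 or C6KO replicate 2. Over all genes, 1278 of 14798 passed without iWAT C6KO replicate 3, against 4 of 14533 with it. Without eWAT C6KO replicate 2, 347 of 15106 passed, and without BAT WT replicate 2, 178 of 13753. For eWAT against BAT the effect of C6KO differed for 1 to 2 adipokine genes with a library left out and for 2 with DESeq2. Over all genes those counts were 22 to 135 and 341. The cause of these shifts was not tested.

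The labels do not say whether libraries with the same replicate number share an animal. Between depots of 1 genotype the correlations of their deviations were -0.066 to 0.219, and between WT and C6KO -0.458 to 0.146, so not every pair was above 0.1 and the numbers were not taken to pair the samples. As a hint from the data, all 6 same-number BAT and iWAT values were above 0 (0.019 to 0.073) and each of the 6 libraries correlated best with its own number, which held for 3 of 6 between eWAT and iWAT and 2 of 6 between BAT and eWAT. With the replicate number as a replicate block, 0 adipokine genes passed in iWAT, 3 in eWAT (Cfd, Nrg4 and Retn) and 1 in BAT, where Lep gave -3.45 (adjusted p = 0.0260 by edgeR). Over all genes, 62 of 14533, 414 of 14889 and 113 of 13595 passed in iWAT, eWAT and BAT. With the replicate block within genotype, 0 adipokine genes differed for iWAT against BAT (Lep 3.17, adjusted p = 0.0640 by edgeR) and 2 for eWAT against BAT, Lep and Rarres2. Of all 15866 genes, 23 and 106 differed in these contrasts.

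Signs changed where estimates were near 0. With 1 library left out, the log2 fold change in iWAT ranged from -0.45 to 0.10 for Lep, from -0.31 to 0.13 for Nampt and from -0.019 to 0.26 for Rarres2, and in BAT from -0.085 to 0.24 for Adipoq, -0.13 to 0.50 for Retn, -0.14 to 0.87 for Rbp4 and -0.082 to 0.16 for Nrg4. Between WT depots the same ranges were -0.22 to 0.13 for Nampt (eWAT against iWAT), and -0.29 to 0.72 for Rbp4 and -0.12 to 0.25 for Apln (BAT against eWAT), and for the Apln effect between iWAT and eWAT -0.45 to 0.38. In the C6KO groups the same contrasts gave -0.19 for Nampt, -0.0053 for Adipoq and -1.63 for Apln. Without a filter Nampt gave -0.0014, and with total counts as the only scaling Apln gave -0.17. Depth in BAT, at 7803108 to 12428683 counts, limits Apln most, with 18 to 54 counts per library.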

Other observations

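Some genes of the related lists had opposite C6KO estimates in eWAT and BAT, as Lep did, although Lep was not called in eWAT. Among the genes of the related lists, 5 were called by DESeq2 higher in eWAT and lower in BAT, among them Sfrp5, a secreted inhibitor of Wnt ligands, the chemokine gene Ccl2, and Nnat and Mest, imprinted genes expressed in fat. DESeq2 called 3.99% of all genes in eWAT and 3.67% in BAT, and the share called in opposite directions was not counted. Whether the 5 are more than that share of the lists is thus not known. By edgeR none of the 5 passed in BAT (adjusted p 0.107 to 0.395), and in eWAT Sfrp5 and Ccl2 alone passed. The 5 genes were picked after their values had been seen. Nnat was 367 ± 36.3 and 612 ± 129 CPM in eWAT WT and C6KO, and 242 ± 143 and 57 ± 18 CPM in BAT. Mest was 614 ± 47.2 and 1113 ± 350 CPM in eWAT and 88.6 ± 65.4 and 19.4 ± 6.0 CPM in BAT. A test that their effects differ between these depots would restate how they were picked, so none is given.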
